A study of Mus musculus with 6 samples.

Results

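miR-142a and miR-223 are microRNAs (miRNAs) of blood cells, and both arms of each, mmu-miR-142a-3p, mmu-miR-142a-5p, mmu-miR-223-3p and mmu-miR-223-5p, were followed in exosomes from mouse macrophages. The 4 rows were taken by name from the series' count table, which holds 707 miRNAs, and the prefix mmu-, for mouse, is left out from here on. Exosomes are small vesicles that cells release. They were represented by the supernatant of bone marrow-derived macrophages on the C57BL/6 strain, in 3 libraries labelled WT and 3 labelled Roquin-1 san:san. Roquin-1 marks messenger RNAs for decay by binding them, and san denotes its sanroque allele. The labels give no treatment, age or sex. Nor do they tie replicates to separate mice or cultures, so p-values reflect only how far these libraries differ, possibly for technical reasons. The comparison asks how the genotype alters the miRNAs of macrophage exosomes.

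An miRNA is cut from a hairpin whose 2 arms, 5p and 3p, can each yield a mature strand of about the same length. The strand that is loaded into an Argonaute protein guides it to messenger RNAs that pair with the seed, bases 2 to 8 of the strand, and the other strand is mostly degraded. miR-142 is made throughout the blood lineages and is used as a mark of haematopoietic cells, and both of its arms are known to be functional. miR-223 is abundant in granulocytes and monocytes, where it restrains granulocyte production and inflammasome activity, and its 3p arm is the usual guide.

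The mature strands are printed because the arm comparison turns on them. They are taken from RefSeq on GRCm38.p6, in which all 4 names matched, and capitals mark the seed.
mmu-miR-142a-3p: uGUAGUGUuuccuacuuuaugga
mmu-miR-142a-5p: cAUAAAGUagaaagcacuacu
mmu-miR-223-3p: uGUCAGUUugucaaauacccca
mmu-miR-223-5p: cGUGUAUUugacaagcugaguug
The 4 seeds differ from each other, and 0 other mature miRNAs of the RefSeq table share any of them. No row of the count table had counts identical to those of a member.

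Both strands of a pair come from 1 hairpin, shown here with the mature arms in capitals, the 5p arm first.
Mir142 hairpin: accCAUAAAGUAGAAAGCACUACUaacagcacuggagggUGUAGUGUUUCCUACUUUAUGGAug
Mir223 hairpin: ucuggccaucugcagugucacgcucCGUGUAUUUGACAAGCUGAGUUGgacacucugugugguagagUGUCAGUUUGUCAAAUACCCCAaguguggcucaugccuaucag
The Mir142 hairpin lies on the plus strand of GRCm38.p6 at chr11:87756864-87756927, within the long non-coding gene Mir142hg and outside its exons in GENCODE M21. The Mir223 hairpin lies on the plus strand at chrX:96242817-96242926, within an exon of the non-coding gene F630028O10Rik. An antisense hairpin, Mir142b, overlaps Mir142, and all 20 bases of its mature strand lie opposite miR-142a-3p. The count table has 0 rows named miR-142b, and the sources used here do not tell whether strand was used in counting.

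The WT libraries held 12447 to 28884 miRNA counts and the san:san libraries 126098 to 185901, so every san:san library was the deeper. The 4 arms took 2.44% ± 0.710 of the counts in WT and 6.92% ± 1.08 in san:san (SD, n = 3 per genotype throughout). Levels are given as CPM (counts scaled to a common library total) after TMM scaling, which assumes that most miRNAs do not differ between libraries. These are relative levels, so a change in the amount of a miRNA per vesicle, in the number of vesicles and in the cells that released them cannot be told apart. Of 254 miRNAs deep enough to test, edgeR's quasi-likelihood test called 163 (64.2%) at an adjusted p under 0.05. The TMM assumption may therefore not hold here. With TMM 88 of the 163 were higher in san:san (34.6% of those tested) and 75 lower (29.5%). Total counts gave 49 higher and 101 lower, and DESeq2 64 higher and 82 lower. The median log2 fold change of all tested miRNAs was 0.30 with TMM and -0.29 with total counts. Members passed the count filter in 3 cases, each with at least 80 counts in every library, and miR-223-5p did not pass.

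Of the 3 arms deep enough to test, miR-142a-3p had the largest fold change. Its counts were 86, 354 and 455 in WT replicates 1, 2 and 3 and 8260, 8290 and 8826 in san:san replicates 1, 2 and 3. On the TMM scale these were 5980.4, 9824 and 16479.9 CPM in WT and 52086, 62368 and 90404 CPM in san:san. All 3 san:san libraries stood above all 3 WT libraries, which was also so for 39.8% of the tested miRNAs. The mean rose from 10761 ± 5312 to 68286 ± 19833 CPM. The log2 fold change was 2.65 ± 0.33 (SE), or 6.28-fold, with an edgeR adjusted p of 1.12e-05. It ranked 6 of 254 by log2 fold change, from the highest, and 5 of 254 by mean level.

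Ranks within a library do not depend on scaling between libraries. miR-142a-3p was number 30, 24 and 11 among the miRNAs of the WT libraries and number 6, 5 and 2 in the san:san libraries. Its share of counts went from 1.34% ± 0.707 in WT to 5.53% ± 1.32 in san:san and did not overlap either (two-sided exact permutation p = 0.1, which is the lowest that groups of 3 can reach).

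miR-142a-5p, the other strand of the same hairpin, was counted 80, 109 and 82 times in the WT libraries and 1282, 933 and 649 times in the san:san libraries. These were 5563, 3025 and 2970.0 CPM in WT and 8084, 7019 and 6648 CPM in san:san. The san:san libraries all stood above the WT libraries, as for 39.8% of the tested miRNAs. WT replicate 1 stood well above the other 2 WT libraries. With TMM the arm rose by log2 0.96 ± 0.24, or 1.94-fold (edgeR adjusted p = 0.00339). As shares of counts the genotypes overlapped, at 0.643%, 0.377% and 0.377% in WT and 0.690%, 0.581% and 0.515% in san:san (exact permutation p = 0.3). The call was lost with total counts (log2 0.39, edgeR adjusted p = 0.177) and without WT replicate 2 (0.72, 0.0632).

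miR-223-3p, the guide strand of the miR-223 hairpin, was counted 90, 117 and 173 times in the WT libraries and 1633, 1395 and 749 times in the san:san libraries. These were 6259, 3247 and 6266 CPM in WT and 10297, 10495 and 7672 CPM in san:san. All 3 san:san libraries stood above all 3 WT libraries, as for 39.8% of the tested miRNAs, although san:san replicate 3 came close to WT replicates 1 and 3. The rise with TMM was log2 0.87 ± 0.26, or 1.83-fold (edgeR adjusted p = 0.00849). As shares of counts the genotypes overlapped, at 0.641% ± 0.208 in WT and 0.780% ± 0.161 in san:san (exact permutation p = 0.5), and 2 of the 3 san:san libraries lay above all WT libraries. The call was lost with total counts (log2 0.30, edgeR adjusted p = 0.336), with DESeq2 (0.61, DESeq2 adjusted p = 0.0662) and without WT replicate 2 (0.51, edgeR adjusted p = 0.129).

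**Figure D1:**
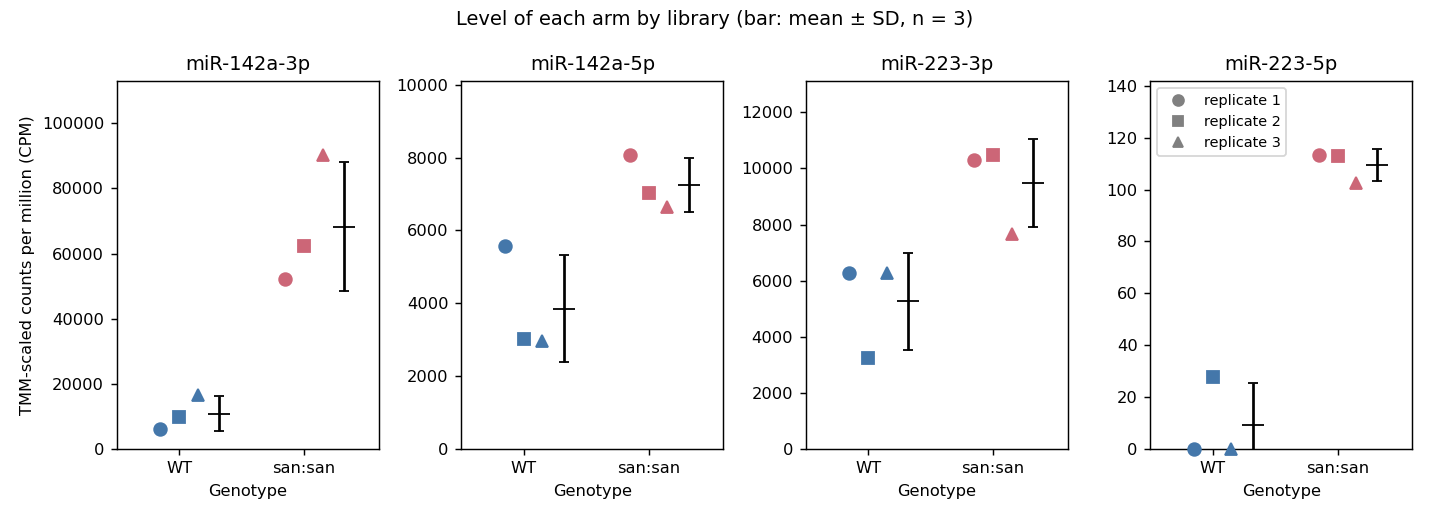
TMM-scaled CPM of each arm in every library (points, one shape per replicate number) with the mean and SD of 3 libraries per genotype, each panel on its own linear axis from 0. The san:san libraries of miR-142a-3p sit between 52086 and 90404 CPM, against 5980.4 to 16479.9 CPM in WT, while the groups of miR-142a-5p and miR-223-3p lie closer together.

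A change of scaling shifts all miRNAs by nearly the same amount, so the distance of a member from the median of all tested miRNAs is nearly fixed by construction. Over 5 scalings that distance on the log2 scale was 2.32 to 2.35 for miR-142a-3p, 0.66 to 0.68 for miR-142a-5p and 0.57 to 0.59 for miR-223-3p. miR-142a-3p passed under each of 10 other settings, at log2 2.04 to 2.78, and without each library in turn, at 2.26 to 3.07. In libraries thinned to the smallest total, 12447 counts, its median over 20 draws was 2.32 and it passed in all 20. miR-142a-5p then had a median of 0.65 and passed in 9 of 20, and miR-223-3p 0.51 and 4 of 20.

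**Figure D2:**
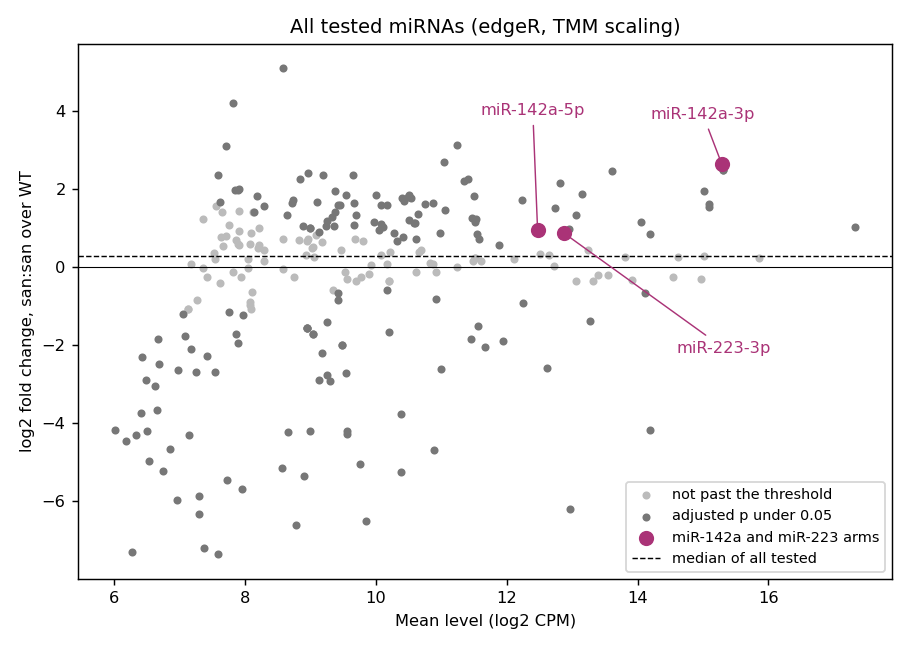
log2 fold change (san:san over WT) against mean level (log2 CPM) for the 254 tested miRNAs, with the 3 tested arms of miR-142a and miR-223 in purple and the median of all tested as a dashed line. miR-142a-3p, at 2.65, stands near the top among the abundant miRNAs, and miR-142a-5p (0.96) and miR-223-3p (0.87) lie between it and the median of 0.30.

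**Figure D3:**
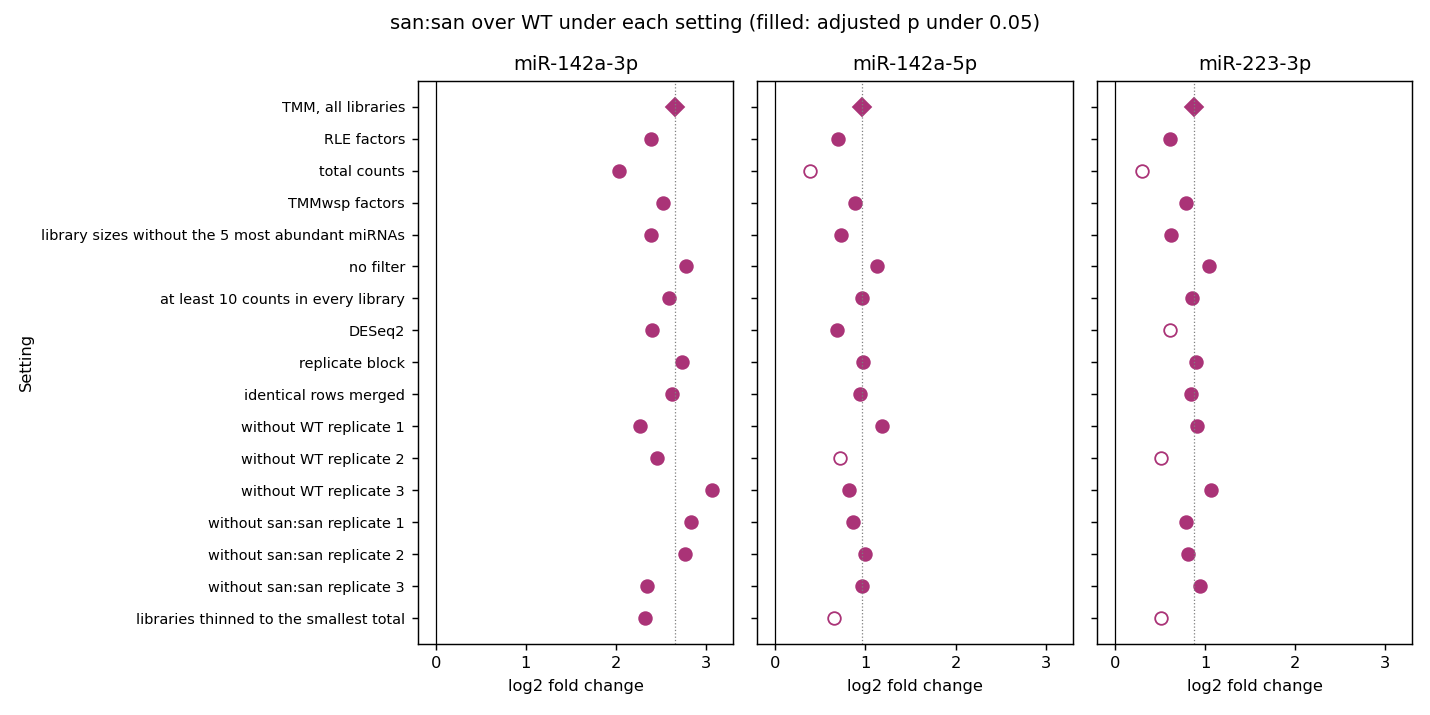
log2 fold change of the 3 tested arms under every setting, with filled symbols where the adjusted p is under 0.05 and a diamond for the TMM fit of all libraries. miR-142a-3p is filled in every row, and the open symbols of miR-142a-5p and miR-223-3p include total counts (0.39 and 0.30) and the fit without WT replicate 2 (0.72 and 0.51).

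miR-223-5p, the passenger strand, was at the edge of detection. The WT libraries held 0, 1 and 0 of its counts, the san:san libraries 18, 15 and 10. The san:san values were 114, 113 and 102 CPM. A count of 0 allows up to 3 counts, which is 209 CPM in WT replicate 1, above all 3 san:san values, and 109 CPM in WT replicate 3, between them. The san:san level could thus have gone unseen in WT replicate 1. At the san:san share of counts the 3 WT libraries would have held 5.74 counts together, and 1 was seen. The ratio of TMM-scaled counts, san:san over WT, was 8.62, with a 95% exact counting interval of 1.47 to 348. That interval depends on the TMM scaling, whose assumption may not hold here. No interval was computed on shares of counts, so whether its lower end would stay above 1 was not tested. Such limits and intervals cover counting error only.

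The arms of miR-142a were compared within each library, where depth and scaling cancel. The 3p count was 1.08 times the 5p count in WT replicate 1 (95% exact counting interval 0.784 to 1.48), 3.25 times in WT replicate 2 (2.61 to 4.06) and 5.55 times in WT replicate 3 (4.38 to 7.11). In san:san the ratio was 6.44 (6.07 to 6.84), 8.89 (8.30 to 9.52) and 13.6 (12.6 to 14.8). The 3p arm was thus even with the 5p arm in WT replicate 1 and above it in the other 5 libraries. The genotypes did not overlap, but the interval of WT replicate 3 holds the ratio of san:san replicate 1.

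In edgeR on both arms, with library as a term, the log2 ratio of 3p to 5p rose by 1.72 ± 0.54 in san:san, or 3.29-fold (adjusted p = 0.00566 over 49 hairpins). Of those 49 hairpins 18 changed (36.7%), 9 toward the 3p arm (18.4%) and 9 toward the 5p arm, and the genotypes did not overlap for 23 (46.9%). miR-142a ranked 9 of 49 in the direction of the 3p arm. The call was lost without WT replicate 1 (1.12, adjusted p = 0.0590) or san:san replicate 2 (1.75, 0.0561). It was also lost in limma with a pseudocount scaled to depth (1.78, limma adjusted p = 0.0743). A two-sided exact permutation test of the 6 log2 ratios gave p = 0.1, the smallest possible.

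**Figure D4:**
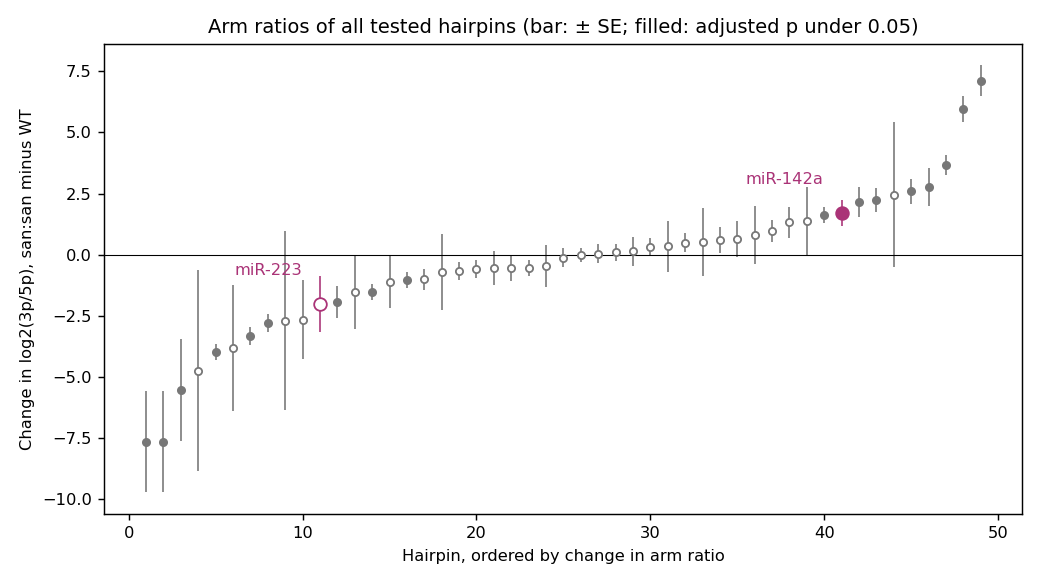
Change in the log2 ratio of 3p to 5p counts (san:san minus WT) for 49 hairpins in order of size, with the SE as a bar and filled symbols at an adjusted p under 0.05. miR-142a (1.72) is filled on the 3p side, with other hairpins above it, and miR-223 (-2.02) is open with a wide bar.

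For miR-223 the 3p arm was nearly all of the signal. Over the 3 WT libraries it had 380 counts against 1 of the 5p arm, and over the san:san libraries 3777 against 43. The 5p arm was 0.262% of the pair in WT (95% exact interval 0.00664 to 1.45) and 1.13% in san:san (0.816 to 1.51), and these intervals overlap. In the 3 san:san libraries, where each count was above 0, the 3p to 5p ratio was 90.7, 93.0 and 74.9, a narrow range. The fitted change in ratio was log2 -2.02 ± 1.15 (edgeR adjusted p = 0.172), a value that rests on the single WT count and did not pass. It was -6.18 without WT replicate 2, which holds that count (adjusted p = 0.0503), -1.20 without WT replicate 3 (0.529) and -0.29 in limma with a fixed pseudocount of 1 (limma adjusted p = 0.612).

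Ratios between the 2 hairpins were also formed within libraries. The miR-142a-3p count was 0.956, 3.03 and 2.63 times the miR-223-3p count in WT and 5.06, 5.94 and 11.8 times in san:san, without overlap. The mean log2 ratio was 0.98 ± 0.91 in WT and 2.82 ± 0.65 in san:san, a difference of 1.85 (exact permutation p = 0.1, or 0.15 adjusted over the 3 ratios computed). The miR-142a-5p count was 0.889, 0.932 and 0.474 times the miR-223-3p count in WT and 0.785, 0.669 and 0.866 times in san:san. These overlapped, with a difference in log2 ratio of 0.07 (exact permutation p = 1), which lay between -0.24 and 0.24 with a library left out. This last ratio and the exact test of the miR-142a arm ratio were added after the values were seen.

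**Figure D5:**
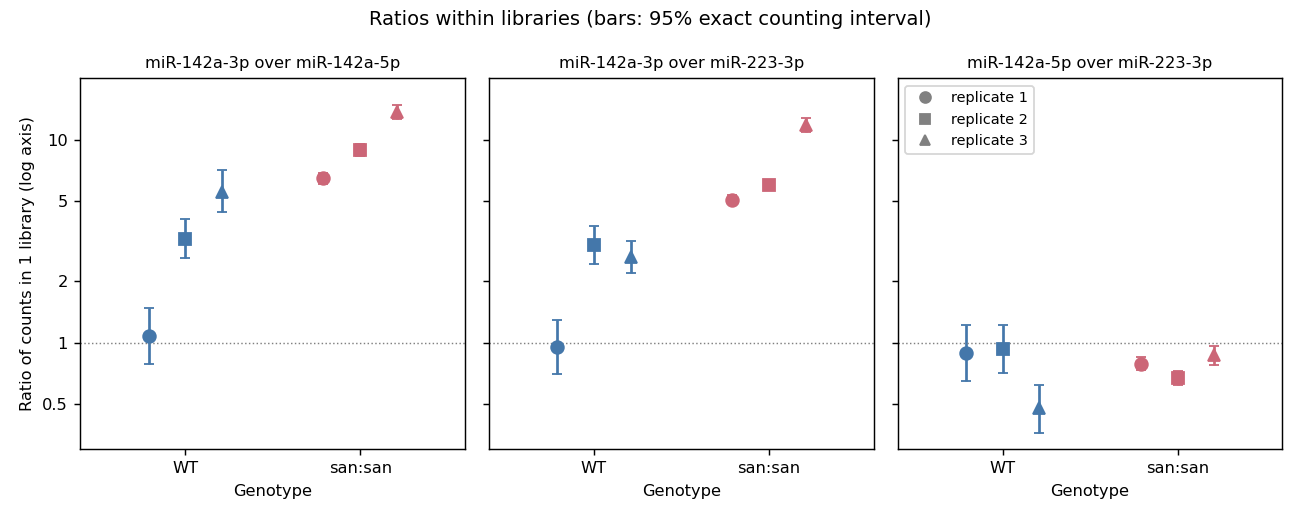
Ratios of counts within each library on a log axis, with 95% exact counting intervals. The 2 panels with miR-142a-3p on top show every san:san library above every WT library, and the miR-142a-5p to miR-223-3p ratio stays between 0.474 and 0.932 in both genotypes.

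By level the order was miR-142a-3p, miR-223-3p, miR-142a-5p and miR-223-5p in 5 of the 6 libraries. In WT replicate 1 miR-223-3p led with 90 counts against 86 and 80, differences within counting error. miR-142a-5p was below miR-223-3p in all 6 libraries, and in WT replicates 1 and 2 the counting interval of their ratio includes 1 (0.649 to 1.21 and 0.711 to 1.22).

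Replicates of the 3 tested arms varied more than counting error. For miR-142a-3p the coefficient of variation of the share was 52.9% in WT, where counting alone gives 5.79%. In san:san it was 23.8%, where counting gives 1.09%. The highest WT share of miR-142a-3p was 3.03 times the lowest. For miR-142a-5p the coefficients were 32.9% in WT (counting 10.5%) and 14.8% in san:san (3.24%), and for miR-223-3p 32.4% (8.89%) and 20.7% (2.82%). miR-223-5p did not vary beyond counting error, with 10.3% in san:san where counting gives 26.4%, and its single WT count gives no measure of spread. On the TMM scale miR-142a-3p varied by 49.4% in WT. Among the 24 tested miRNAs with a WT count within 2-fold of its own, itself included, this was the highest value, and their median was 21.0%. It did not stand apart, since miR-126a-5p, also among them, came close at 48.7%.

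The replicates of miR-142a-3p were not in the same order as those of miR-142a-5p or miR-223-3p. WT replicate 1 was the lowest WT library for miR-142a-3p and the highest for miR-142a-5p on the TMM scale. In san:san, replicate 3 was the highest for miR-142a-3p and the lowest for the other 3 arms.

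Likeness of profile was measured as the root-mean-square difference of log2 CPM, each centred on its mean, over the 6 libraries. The profiles closest to miR-142a-3p were those of miR-19a-3p (0.33), miR-340-3p (0.35) and miR-486a-5p (0.37), against a median of 1.37 over all tested miRNAs. Its own partner strand, miR-142a-5p, came only at place 97 of 253, with a difference of 1.17. Closest to miR-142a-5p were miR-323-3p (0.11), miR-7a-1-3p (0.16) and miR-151-3p (0.23), and miR-223-3p was at place 15 (0.33). Closest to miR-223-3p were miR-7a-1-3p (0.21), miR-151-3p (0.21) and miR-411-5p (0.26), and miR-142a-5p was at place 9. These are descriptions of 6 libraries that share the genotype difference. Several of these profiles rest on few WT counts, so counting error is large in them. Over all 3 WT libraries miR-340-3p had 9 counts, miR-411-5p 23, miR-323-3p 24 and miR-7a-1-3p 46. The others were deeper, with 67 for miR-19a-3p, 165 for miR-151-3p and 972 for miR-486a-5p.

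The myeloid list held 7 names besides the members. Of these, 4 were deep enough to test, 3 rose, 0 fell and 1 did not pass, where 34.6% of all tested miRNAs were higher. The number higher was 2 with DESeq2, RLE, TMMwsp or total counts and when the 5 most abundant miRNAs were kept out of the library totals. It was also 2 without WT replicate 2, WT replicate 3, san:san replicate 1 or san:san replicate 3, and 4 without WT replicate 1. Their median log2 fold change was 0.86, beside 0.30 for all tested. miR-342-3p rose by log2 1.87 ± 0.22 (edgeR adjusted p = 5.91e-06) and miR-21a-5p, induced in activated macrophages, by 1.15 ± 0.21 (3.19e-04). Of the tested names in this list miR-342-3p rose most, and its partner strand, miR-342-5p, was placed in the lymphocyte list. miR-22-3p rose by 0.56 ± 0.22 (0.0401), while miR-146a-5p, which dampens signalling from Toll-like receptors, stood at 0.26 ± 0.25 (0.363). The summed share of the list was 3.02% to 4.55% of counts in WT and 4.15% to 5.01% in san:san. Names too low to test were miR-511-3p, with 0 counts in all of WT and 9 in all of san:san, miR-147-3p and miR-155-5p. The mean of miR-147-3p was 55.5 ± 96.1 CPM in WT and 55.6 ± 32.7 in san:san. That of miR-155-5p was 100 ± 83.3 CPM in WT and 74.4 ± 37.8 in san:san.

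Markers of other cells moved in the same libraries. Erythroid names had 4 of 5 higher and 0 lower, where 34.6% of all tested miRNAs were higher. They include both miR-486 names, which have identical counts, and with identical rows merged the number higher was 3. The summed share of the list, which takes in those identical counts under both names, was 3.84% to 6.25% in WT and 15.6% to 17.9% in san:san. The miR-451a level, a defining erythroid marker, rose by log2 1.97 ± 0.24 (edgeR adjusted p = 8.21e-06), and miR-486a-5p by 2.50 ± 0.21 (2.26e-07). Of 3 tested lymphocyte names 1 rose, miR-150-5p, by 2.46 ± 0.21 (edgeR adjusted p = 3.54e-07). The lymphocyte list took 0.547% to 0.755% of WT counts and 1.52% to 2.05% of san:san counts, with miR-342-5p at 0 in WT and miR-150-3p at 0 in san:san. Both endothelial names, the arms of miR-126a, rose, and took 1.82% to 3.69% in WT and 3.37% to 6.96% in san:san.

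Stromal and smooth muscle names stood at 1 of 5 higher and 1 lower with TMM, and at 0 higher with DESeq2, RLE, total counts or totals that leave out those 5 miRNAs. Without WT replicate 2 the number higher was 0, and without WT replicate 3 it was 2. Total counts gave 2 lower, and the fit without WT replicate 2 gave 0. The list had 0.844% to 1.32% of counts in WT and 0.741% to 0.833% in san:san. The liver name miR-122-3p, with 2 counts in all of WT against 90 in all of san:san, passed the count filter only through san:san. It was called higher. With at least 10 counts required in every library, or without any 1 of the san:san libraries, it failed the count filter and was not tested. miR-122-5p was tested and not called. The liver list took 0.501% to 0.707% and 0.439% to 0.600%. Over all 6 lists, miR-122-3p and both miR-486 names included, 12 of 21 tested names were higher and 1 lower. Their median log2 fold change was 0.78. Of all tested miRNAs 34.6% were higher and 29.5% lower. The number of list names higher was 9 to 14 over the other settings. The part of these cell types, and of the difference in depth, in the levels of miR-142a and miR-223 was not tested.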

How the data were processed

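Small RNA libraries of 3 WT and 3 Roquin-1 san:san samples were grouped by their titles. RNA was taken with Trizol and miRNA libraries followed standard Illumina procedures, per the labels' protocols, which also name an mRNA library kit. Per the submitters' processing notes the genome build was mm9. The sources used here do not give the aligner, trimming or miRNA release. Raw counts per mature miRNA are in 1 table deposited by the authors. The authors also deposited a scaled signal per sample, headed TPM although column sums were 1056890 to 1082573, above what TPM can reach. Recovered reads were whole within 0.1 for 100% of its values, and for the members they equalled the table's counts. Columns of other samples numbered 0.

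The main test was edgeR 4.0.16 in R 4.3.3 (quasi-likelihood, filterByExpr with a minimum count of 10, TMM, robust, genotype only, Benjamini-Hochberg adjustment over 254 miRNAs). Arms were tested in edgeR with library and arm as terms where the 2 arms together had 20 or more counts in each library. Permutation tests were exact and two-sided. Alternatives used DESeq2 1.42.0, limma 3.58.1, other scalings and filters, thinning to the smallest total, a replicate block and libraries left out. Scripts were tested on simulated data. RefSeq and GENCODE (GRCm38) gave sequences and positions only.

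The members, the lists and the tests were chosen with earlier results of these data known. Named were the 4 arms, the 3 closest profiles of each tested arm (log2 CPM with a prior count of 2), and up to 4 list members past the threshold by smallest p. miR-146a-5p, the untested myeloid names and list members at 0 counts were named after their values were seen.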

Additional observations from a re-analysis of the deposited data

How the results depend on the processing

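The direction of the 3 tested arms held under every setting run. For miR-142a-5p the call was lost with total counts (log2 0.39) and in thinned libraries (0.65), and for miR-223-3p with total counts (0.30), DESeq2 (0.61) and in thinned libraries (0.51). With a library left out they ranged from 0.72 to 1.18 and from 0.51 to 1.07, and both calls were lost without WT replicate 2. The change in the miR-142a arm ratio did not pass in limma with a scaled pseudocount (1.78, adjusted p = 0.0743) or with the replicate block added (1.78, 0.0610), and ranged from 1.12 to 2.22 with a library left out. The cause was not tested. The log2 difference of the miR-142a-5p to miR-223-3p ratio turned to -0.24 without WT replicate 3 and to -0.015 without san:san replicate 3, in a range up to 0.24.

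Requiring at least 10 counts in every library left 103 miRNAs, of which 66 passed (35 higher, 31 lower). Thinning left a median of 132 to test, of which 82.5 passed (39 higher, 44.5 lower), and 8 hairpins in place of 18. With total counts 49 were higher, and 2 names of the 6 lists were lower in place of 1, against 0 to 1 with a library left out. Replicate numbers are shared between genotypes, but same-numbered libraries correlated at 0.10, -0.08 and 0.26 over miRNAs, and WT replicate 1 correlated best with san:san replicate 2, so the numbers were not taken as pairs. The replicate block gave 161 miRNAs in place of 163. For the arms it was run in limma with the scaled pseudocount, where it gave 9 hairpins in place of the 23 without a block, and edgeR without a block gave 18. No group exceeded 3 samples, so outlying libraries were not tested for. Depth kept miR-223-5p below the count filter. Without a filter edgeR with TMM gave it a log2 fold change of 3.08 (adjusted p = 0.0204), which rests on 1 WT count. Adjusted p-values of the unfiltered edgeR fit were far lower for miR-142a-3p too, at 1.64e-28 against 1.12e-05 with the filter.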
